A study of Mus musculus with 4 samples.

Results

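The translation initiation factors are the proteins that bring the initiator Met-tRNA and an mRNA to the ribosome. Their transcripts were taken here as every entry of the expression table whose symbol starts with Eif1 to Eif6, except the eIF2 alpha kinases (Eif2ak) and the eIF2 gamma genes (Eif2s3). That rule gave 49 of 24497 mouse gene entries, and 46 of the 49 reached 1 TPM in at least 2 libraries, TPM being a transcript abundance corrected for length and scaled to the same total in each library. The RNA came from mouse acute myeloid leukemia (AML) cells made from bone marrow hematopoietic stem cells with NRAS and AE9a, AE9a being a truncated form of the AML1-ETO fusion. The first group, Tet2 KO, has 2 libraries from Tet2-/- stem cells, which lack exons 8 to 10 of Tet2, a dioxygenase that oxidises 5-methylcytosine in DNA. The other group, WT, has 2 libraries from wild-type stem cells. Cells of both groups carried the same oncogenes and grew in the cytokines SCF (50 ng/ml), IL-3 (10 ng/ml) and IL-6 (10 ng/ml), under selection with G418 (1 mg/ml) plus puromycin (2 µg/ml). The labels name 2 replicates a group and do not say whether these were separate cultures or lines, so the p-values cover no more than the variation among these 4 libraries, and that variation may be technical.

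In cap-dependent initiation, eIF2 carries Met-tRNA to the small ribosomal subunit, where eIF1, eIF1A, eIF3 and eIF5 assemble with it. The eIF4F complex (the cap-binding eIF4E, the scaffold eIF4G and the helicase eIF4A) loads the mRNA, and the 4E-BP proteins hold eIF4E away from eIF4G until mTORC1 phosphorylates them. In AML and other blood cancers this step is known as a point where growth signalling meets protein synthesis.

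Tet2 itself had 53.53 and 52.79 TPM in the libraries labelled Tet2 KO, against 35.05 and 39.95 TPM in the WT libraries (log2 change 0.50, limma adjusted p = 0.0054). A whole-gene value cannot show whether exons 8 to 10 are missing, so it does not check the labels, and every direction below rests on them. All 10 markers of myeloid progenitors and AML blasts passed the filter, with summed levels of 5729.28 and 5748.31 TPM in Tet2 KO libraries and 5668.88 and 5860.88 TPM in WT libraries, and 5 of the 10 rose (Kit, Cd34, Mpo, Ptprc and Cebpa, log2 changes of 0.59, 0.46, 0.44, 0.17 and 0.15) while 3 fell (Elane, Spi1 and Ms4a3, -1.28, -0.26 and -0.14). The 7 markers of T and B cells summed to 0.48 and 0.27 TPM in Tet2 KO libraries and 0.21 and 0.41 TPM in WT libraries, with Cd3e and Ms4a1 at 0. All 11 markers of maturing granulocytes fell, with sums of 23659.5 and 23957.4 TPM in Tet2 KO libraries and 47095.88 and 46443.47 TPM in WT libraries. Of 8 markers of monocytes, macrophages and dendritic cells, 6 fell and 1 rose, and their sums were 1135.43 and 1117.4 TPM in Tet2 KO libraries and 1825.36 and 1833.33 TPM in WT libraries. Of 5 mast cell and basophil markers tested, 3 fell (Tpsb2, Cma1 and Hdc, log2 changes of -1.63, -1.50 and -1.09) and 1, Cpa3, rose (0.29). Cpa3 makes up most of the sum over the 6 listed, 2070.67 and 2000.93 TPM in Tet2 KO libraries and 1881.45 and 1956.8 TPM in WT libraries. The 6 stromal and endothelial markers summed to 9.14 and 9.06 TPM in Tet2 KO libraries and 6.46 and 6.7 TPM in WT libraries, nearly all of it Pdgfrb, which rose (log2 change 0.48). Hbb-bt, a beta globin gene of red cells, rose too, with 201.76 and 215.53 TPM in Tet2 KO libraries and 136.29 and 129.13 TPM in WT libraries (log2 change 0.65, limma adjusted p = 0.00087). The part of these markers in the results below was not tested. In bulk samples fewer cells of a type and less RNA per cell cannot be told apart.

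Of the 46 initiation factors that passed the filter, 13 were called higher in Tet2 KO cells, 3 were called lower and 30 did not pass the test. The call was a limma adjusted p below 0.05, with Benjamini-Hochberg adjustment over all 11837 tested genes. Called higher were thus 28.3% of the factors, beside 18.9% of all genes tested, and called lower were 6.5%, beside 11.6%. The 2 groups of libraries did not overlap for 23 factors that were higher in Tet2 KO cells, beside 42.2% of all genes tested, and for 13 that were lower, beside 26.5%. For the other 10 factors the groups overlapped, and over all genes 68.6% stood apart in either direction. Called or not, 28 of 46 changes were positive, and among all genes 58.8% were. The median log2 change of the factors was 0.05, and that of all genes tested was 0.04. The changes were small, and those called ran between log2 changes of -0.18 for Eif4a3 and 0.37 for Eif4ebp1.

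**Figure D1:**
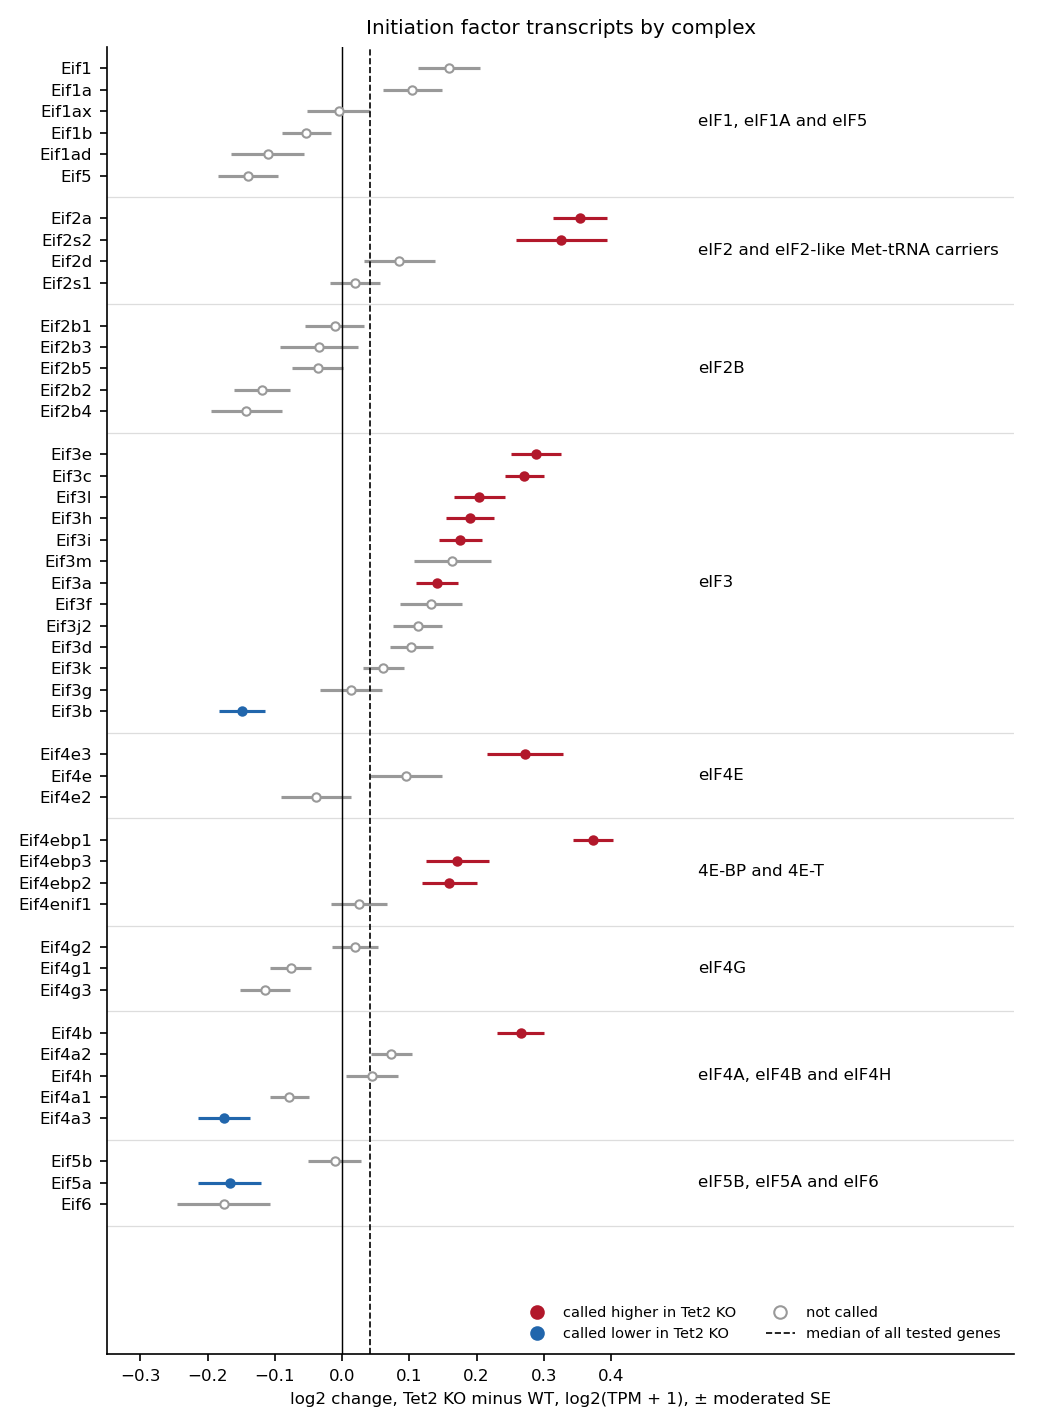
The log2 change, Tet2 KO minus WT on the log2(TPM + 1) scale, is plotted on the horizontal axis for each of the 46 factors, grouped by complex, with bars for the moderated standard error of limma. Red points (13) were called higher in Tet2 KO cells, blue points (3) lower and open points (30) were not called, and the dashed line marks the median of all tested genes at 0.04.

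As a class these transcripts were abundant. By mean TPM over the 4 libraries, 24 of the 46 factors stood at or above percentile 90 of the tested genes, and the lowest, Eif2b4, at percentile 38.2. The sum over all 49 factors was 9658.1 and 9689.9 TPM in Tet2 KO libraries, against 9218 and 9329.3 TPM in WT libraries, which is 0.966% and 0.969% of each Tet2 KO library and 0.922% and 0.933% of each WT library. Eif5a was the most abundant member, followed by Eif4a1 and Eif1. Eif5a had 1184.14 and 1159.71 TPM in Tet2 KO libraries and 1263.11 and 1371.15 TPM in WT libraries. The 3 members under the filter were Eif4e1b, Eif3j1 and Eif5a2. Eif4e1b was listed at 0 in all 4 libraries, Eif3j1 stood at 0.08 TPM in all 4, and Eif5a2 had 0.43 and 0.46 TPM in Tet2 KO libraries and 0.32 and 0.49 TPM in WT libraries. Eif3j1 is a near-identical copy of Eif3j2, and how the counting split reads between them is not given, so the level of either is uncertain.

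Promoter windows were looked at because mRNAs of the translation machinery are known for starting with a run of pyrimidines, the 5′ terminal oligopyrimidine (TOP) motif. RefSeq windows on GRCm38.p6, from 250 bases before to 50 after the annotated start, were matched for 37 of the 49 members. Of the 13 factors called higher 7 had a window, and Eif4ebp1, with the largest change, had none. A TOP-like start, a C at the start followed by 4 bases that are each C or T, was found in 1 of the 37 windows (2.7%), that of Eif3f, and in 2.38% of the 9071 tested genes with a window. A run of that kind anywhere within 10 bases of the start was in 7 of 37 windows (18.92%) and in 27.31% of those of the tested genes. The letters CACGTG, an E-box that reads the same on both strands, were in 8 of 37 windows (21.62%) and in 10.46% of those of the tested genes. Among those 8 genes, Eif3a was called higher and none was called lower. TGATGNAA on either strand, a motif of the ATF4 type, was in 0 of 37 windows and in 2.33% of those of the tested genes. The median ratio of observed to expected CpG was 0.913 over the windows of the members and 0.772 over those of the tested genes. The stretch around the start, 40 bases before to 25 after it and written 5′ to 3′ on the strand of the gene, is given for 4 factors that rose, 2 that fell and Eif3f, with the pyrimidine run of Eif3f in capitals, so that the starts can be set beside each other.
Eif2a: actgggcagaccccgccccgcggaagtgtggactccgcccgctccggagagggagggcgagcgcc
Eif3c: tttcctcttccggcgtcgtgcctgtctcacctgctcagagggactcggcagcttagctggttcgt
Eif3l: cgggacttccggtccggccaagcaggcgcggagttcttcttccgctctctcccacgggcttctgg
Eif4b: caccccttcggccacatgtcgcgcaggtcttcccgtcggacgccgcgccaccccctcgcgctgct
Eif3b: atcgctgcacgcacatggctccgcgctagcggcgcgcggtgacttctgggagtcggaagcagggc
Eif4a3: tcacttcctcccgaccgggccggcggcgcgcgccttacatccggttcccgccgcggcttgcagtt
Eif3f: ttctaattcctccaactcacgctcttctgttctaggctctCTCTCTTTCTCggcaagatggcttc
These stretches are Eif2a (chr3:58525781-58525845, plus strand), Eif3c (chr7:126566342-126566406, minus strand), Eif3l (chr15:79075183-79075247, plus strand), Eif4b (chr15:102073733-102073797, plus strand), Eif3b (chr5:140419265-140419329, plus strand), Eif4a3 (chr11:119300019-119300083, minus strand) and Eif3f (chr7:108934375-108934439, plus strand). A match is a description of letters and not a binding site, and cells may start transcription elsewhere. The first 20 bases after the annotated start were found in an annotated GENCODE transcript for 29 of the 37, and Eif3f and Eif3b are among those where they were not. The GENCODE gene Eif3f starts at base 108934417, inside the capital run, and the letters from there are still a C followed by 4 bases that are each C or T. Where transcripts of these cells start was not tested.

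Among the carriers of Met-tRNA, 2 of 4 transcripts rose, Eif2a and Eif2s2, and the other 2, Eif2s1 and Eif2d, did not pass the test. Over all genes tested, 18.9% were called higher. Eif2a encodes eIF2A, a single-chain factor that binds Met-tRNA on non-standard starts, and is not the alpha subunit of eIF2. Eif2a (mouse chromosome 3, 58525821 to 58557501, GRCm38) had 116.38 and 111.67 TPM in Tet2 KO libraries, against 87.29 and 90.68 TPM in WT libraries. Both Tet2 KO values lay above both WT values, and the log2 change was 0.35 (SE 0.040, limma adjusted p = 0.0032). Its exons overlap those of Serp1 on the opposite strand, which was also higher, with 308.86 and 315.67 TPM in Tet2 KO libraries and 262.1 and 271.92 TPM in WT libraries (log2 change 0.23, limma adjusted p = 0.0079). Whether reads were counted by strand is not given in the sources used here, so reads of this pair cannot be told apart.

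The eIF2 subunits moved unequally. Eif2s2, the beta subunit (chromosome 2, 154871410 to 154892935), had 230.71 and 216.91 TPM in Tet2 KO libraries, against 167.45 and 189.67 TPM in WT libraries, and the groups did not overlap. Its log2 change was 0.33 (SE 0.067, limma adjusted p = 0.019), a call that was lost without Tet2 KO replicate 1 (0.12) or Tet2 KO replicate 2 (0.071). Eif2s1, the alpha subunit whose phosphorylation slows initiation, had 89.1 and 85.66 TPM in Tet2 KO libraries and 85.54 and 86.89 TPM in WT libraries. The groups overlapped for Eif2s1, with a log2 change of 0.02 (limma adjusted p = 0.74). Eif2d, a factor that can deliver tRNA without GTP, had 54.64 and 59.88 TPM in Tet2 KO libraries and 53.84 and 53.89 TPM in WT libraries (limma adjusted p = 0.27).

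None of the 5 subunits of eIF2B, the exchange factor that returns eIF2 to its GTP form, passed the test, beside 30.5% of all genes tested called in either direction. Eif2b1, Eif2b2, Eif2b3, Eif2b4 and Eif2b5 had log2 changes between -0.14 and -0.01. Eif2b4 had 13.65 and 13.46 TPM in Tet2 KO libraries and 15.29 and 14.85 TPM in WT libraries, and Eif2b2 had 52.16 and 52.68 TPM in Tet2 KO libraries and 55.56 and 58.49 TPM in WT libraries. For those subunits the groups stood apart with adjusted p of 0.095 and 0.085 by limma. The summed level of the 5 subunits was 159.27 and 163.3 TPM in Tet2 KO libraries, against 168.33 and 170.29 TPM in WT libraries.

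The list for start codon selection, with eIF1, eIF1A and eIF5, gave no call in 6 transcripts. Over all genes tested, 30.5% were called in either direction. Eif1, which keeps the scanning ribosome open until a start codon is met, had 554.3 and 584.09 TPM in Tet2 KO libraries, against 526.43 and 493.26 TPM in WT libraries. Its log2 change of 0.16 came with a limma adjusted p of 0.052. Eif5, the GTPase activator of eIF2, had 114.37 and 118.2 TPM in Tet2 KO libraries, against 124.05 and 132.46 TPM in WT libraries (log2 change -0.14, limma adjusted p = 0.066). Eif1 and Eif5 thus stood on opposite sides of 0, each with groups that did not overlap. Of the remaining 4, Eif1ax, the X-linked eIF1A gene, was nearest to 0, with 179.51 and 179.07 TPM in Tet2 KO libraries and 172.49 and 187.75 TPM in WT libraries. Eif1a and Eif1b, other genes for the same factors, had log2 changes of 0.10 and -0.05. Eif1ad, placed in this list though not a gene for eIF1, eIF1A or eIF5, had -0.11.

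The eIF3 complex, the scaffold that binds the small ribosomal subunit and recruits the mRNA, had the most calls of any complex, and also the most members tested. Of 13 subunit transcripts tested, 6 rose (Eif3a, Eif3c, Eif3e, Eif3h, Eif3i and Eif3l), 1 fell (Eif3b) and 6 did not pass the test. Called higher were thus 46.2%, beside 18.9% of all genes tested, and called lower 7.7%, beside 11.6%. The share called higher was larger in the eIF4E-binding proteins (75.0%) and the Met-tRNA carriers (50.0%). The largest changes were those of Eif3e and Eif3c. Eif3e (chromosome 15, 43250058 to 43282719) had 403.34 and 384.69 TPM in Tet2 KO libraries, against 326.8 and 317.99 TPM in WT libraries. Eif3c (chromosome 7, 126546455 to 126566411) had 320.09 and 322.86 TPM in Tet2 KO libraries, against 266.55 and 265.84 TPM in WT libraries. In both genes the Tet2 KO libraries were the higher ones, with log2 changes of 0.29 (SE 0.037, limma adjusted p = 0.0047) for Eif3e and 0.27 (SE 0.029, limma adjusted p = 0.0028) for Eif3c. Eif3e has 4 pseudogenes in the annotation, among which reads may have been split, and its call was lost without Tet2 KO replicate 1 (0.055).

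The other risen subunits had smaller changes. Eif3l had 203.87 and 207.65 TPM in Tet2 KO libraries, against 174.08 and 182.95 TPM in WT libraries (log2 change 0.20, limma adjusted p = 0.014). Eif3h, the most abundant eIF3 subunit transcript, had 516.92 and 527.86 TPM in Tet2 KO libraries, against 448.01 and 467.5 TPM in WT libraries (log2 change 0.19, limma adjusted p = 0.014). Eif3h and Eif3l are both subunits of the octamer described below. Eif3i had 243.08 and 249.61 TPM in Tet2 KO libraries, against 217.81 and 218.1 TPM in WT libraries (log2 change 0.18, limma adjusted p = 0.013). Eif3a, the large subunit around which the others gather, had 225.96 and 221.95 TPM in Tet2 KO libraries, against 201.16 and 204.83 TPM in WT libraries (log2 change 0.14, limma adjusted p = 0.025). For all 4 the 2 groups of libraries did not overlap. Leaving out a Tet2 KO library ended the calls of Eif3a, Eif3h, Eif3i and Eif3l, with adjusted p between 0.083 and 0.18, and the call of Eif3a also ended without WT replicate 1 (0.057).

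Eif3b, a scaffold subunit that binds Eif3a in the core, was the 1 subunit transcript that fell. It had 178.89 and 181.7 TPM in Tet2 KO libraries, against 203.55 and 196.46 TPM in WT libraries, a log2 change of -0.15 (SE 0.034, limma adjusted p = 0.027). Every other subunit tested had a log2 change above 0. The 6 uncalled subunits were Eif3d, Eif3f, Eif3g, Eif3j2, Eif3k and Eif3m, with log2 changes between 0.01 for Eif3g and 0.16 for Eif3m. Eif3m had 264.8 and 246.51 TPM in Tet2 KO libraries and 237.91 and 218.32 TPM in WT libraries (limma adjusted p = 0.081). The summed level of the eIF3 transcripts, Eif3j1 included, was 3619.02 and 3649.08 TPM in Tet2 KO libraries, against 3296.29 and 3265.89 TPM in WT libraries, a 1.11-fold ratio of means with an exact two-sided permutation p of 0.333, the smallest that 2 against 2 libraries can give. The call of Eif3b was also lost without Tet2 KO replicate 1 (0.18), Tet2 KO replicate 2 (0.13) and WT replicate 1 (0.064).

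The 13 eIF3 transcripts were not at equal levels. The highest was 6.21 and 6.5 times the lowest in Tet2 KO libraries, and 5.97 and 6.08 times in WT libraries, on the length-corrected TPM scale. The lowest in each library was Eif3j2, whose level is uncertain, so the span is uncertain too. Next lowest was Eif3g, with 150.58 and 160.29 TPM in Tet2 KO libraries and 157.7 and 150.14 TPM in WT libraries. The median subunit had 243.08 and 246.51 TPM in Tet2 KO libraries, against 217.81 and 218.1 TPM in WT libraries. The octamer of eIF3 is built from subunits a, c, e, f, h, k, l and m. In a grouping made after the values were seen, all 8 octamer subunits were higher in both Tet2 KO libraries than in both WT libraries, with 5 calls and a median log2 change of 0.18. Of all genes tested, 42.2% stood apart and higher and 18.9% were called higher, and with spike-in scaling 0 of the 8 were called. The other 5 subunits had 1 call in each direction and a median log2 change of 0.10.

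**Figure D2:**
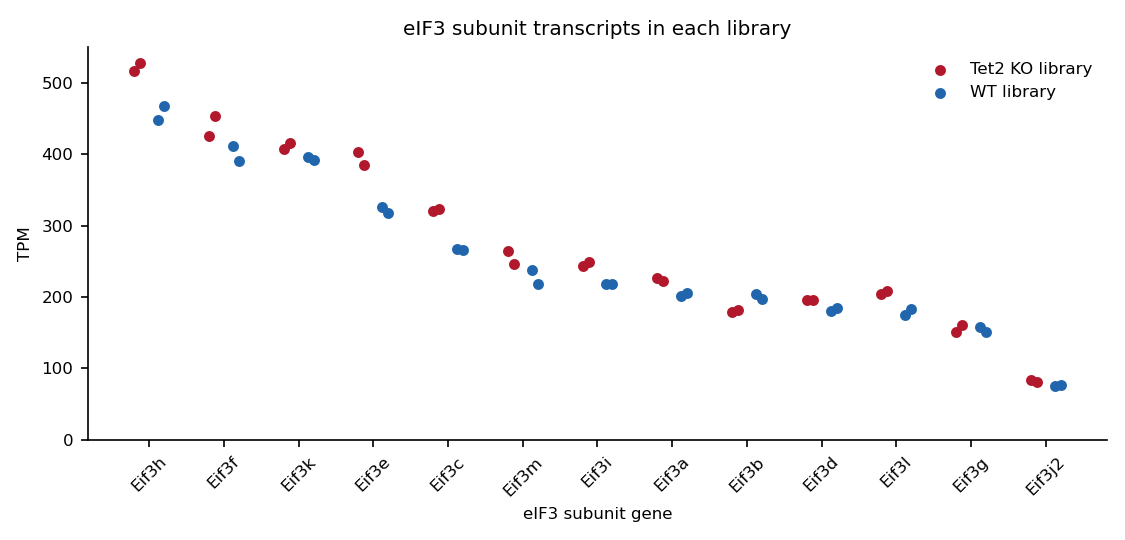
TPM is plotted on the vertical axis for each of the 13 eIF3 subunit transcripts along the horizontal axis, ordered by the WT mean, with 1 point for each of the 2 Tet2 KO and 2 WT libraries. The Tet2 KO points lie above the WT points for 11 subunits, below them for Eif3b, and among them for Eif3g.

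At the mRNA cap, 3 of the 4 eIF4E-binding proteins rose, among them the factor with the largest change. Over all genes tested, 18.9% were called higher. Eif4ebp1, which encodes the 4E-BP best known as a target of mTORC1 (chromosome 8, 27260329 to 27276674), had 269.08 and 267.48 TPM in Tet2 KO libraries, against 207.14 and 206.51 TPM in WT libraries. The groups were well separated, and the log2 change of 0.37 (SE 0.030, limma adjusted p = 0.0011) is the highest of the 46. Eif4ebp2, the paralog known best from brain, had 97.26 and 97.72 TPM in Tet2 KO libraries, against 84.78 and 89.66 TPM in WT libraries (log2 change 0.16, limma adjusted p = 0.035). Eif4ebp3 was lower in level, with 25.92 and 25.15 TPM in Tet2 KO libraries and 22.21 and 22.92 TPM in WT libraries (log2 change 0.17, limma adjusted p = 0.044). Its locus overlaps another annotated gene. All 3 paralogs therefore rose. Eif4enif1, the eIF4E transporter 4E-T, did not pass the test, with 52.02 and 52.49 TPM in Tet2 KO libraries and 50.09 and 52.61 TPM in WT libraries. Leaving out any 1 library but WT replicate 2 ended the call of Eif4ebp2 (adjusted p 0.085 to 0.17), and leaving out any library ended that of Eif4ebp3 (0.063 to 0.21).

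The cap-binding proteins themselves differed less. Eif4e, the main one, had 52.88 and 52.98 TPM in Tet2 KO libraries and 47.28 and 51.8 TPM in WT libraries (log2 change 0.10, limma adjusted p = 0.23), and Eif4e2, a repressive cap-binder, had 29.49 and 28.54 TPM in Tet2 KO libraries and 30.84 and 28.86 TPM in WT libraries. Eif4e3, a more distant relative of Eif4e, rose, with 27.7 and 29.43 TPM in Tet2 KO libraries, against 22.73 and 24.25 TPM in WT libraries (log2 change 0.27, SE 0.056, limma adjusted p = 0.020). Its 2 groups of libraries did not overlap. An overlapping annotated gene limits that value, and the call was lost without Tet2 KO replicate 1 (0.069), Tet2 KO replicate 2 (0.12) or WT replicate 1 (0.064).

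**Figure D3:**
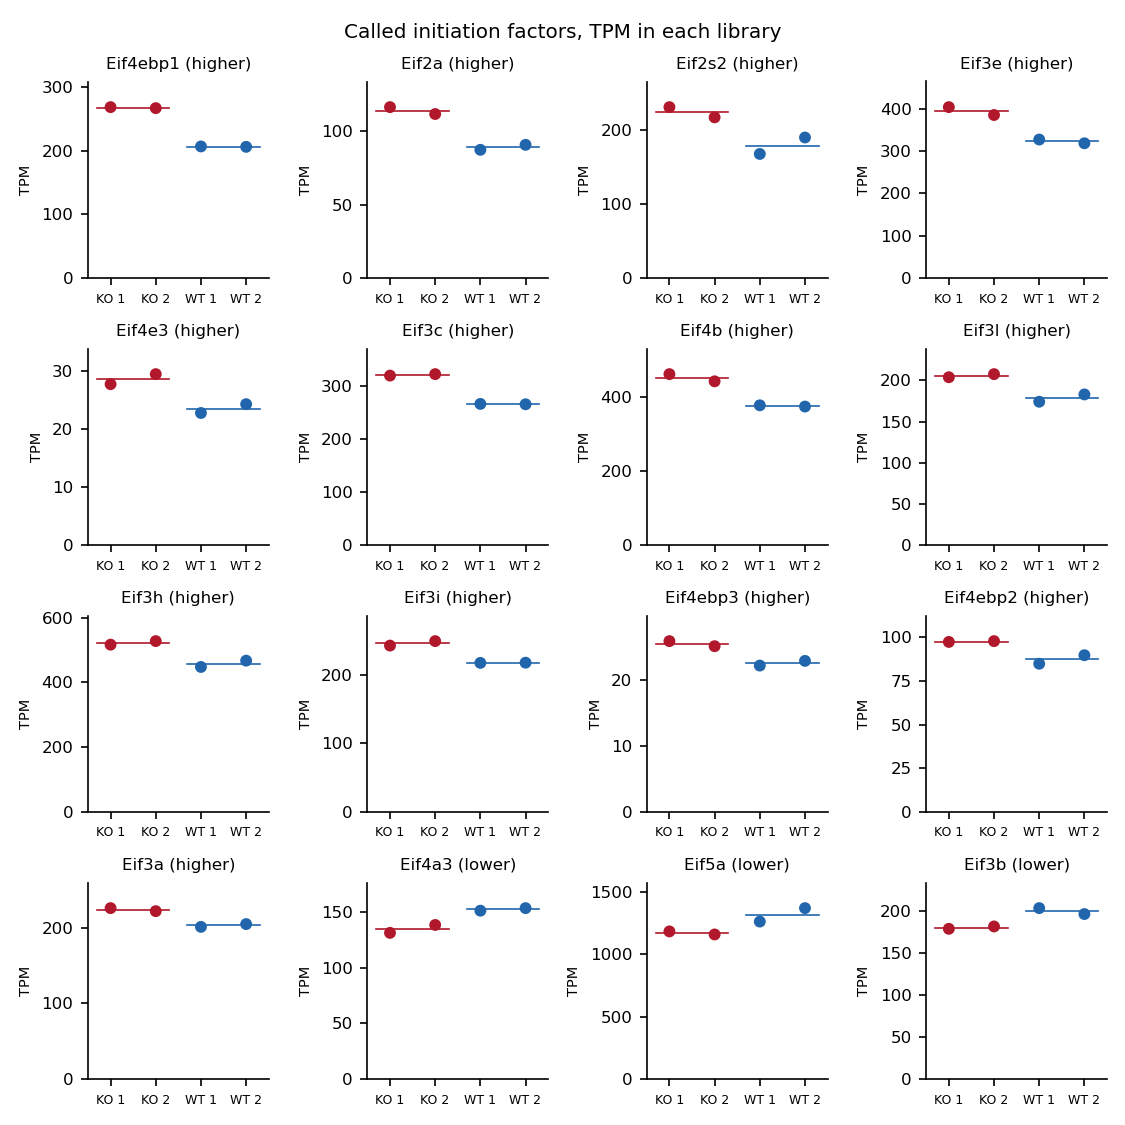
TPM is plotted on the vertical axis from 0 for each of the 16 called factors, with 1 point a library, the 2 Tet2 KO libraries left and the 2 WT libraries right, and lines at the group means. The points of the groups do not overlap for any of the 13 factors that rose or the 3 that fell, Eif3b, Eif4a3 and Eif5a.

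Among the 5 helicase factors, Eif4b rose and Eif4a3 fell, beside 18.9% of all genes tested called higher and 11.6% called lower. Eif4b, the RNA-binding partner that stimulates eIF4A (chromosome 15, 102073773 to 102097173), had 463.43 and 443.9 TPM in Tet2 KO libraries, against 378.8 and 375.43 TPM in WT libraries, a log2 change of 0.27 (SE 0.035, limma adjusted p = 0.0048) that lost its call without Tet2 KO replicate 1 (0.059). Eif4h, which resembles it, did not pass the test (log2 change 0.04, limma adjusted p = 0.43). The helicase paralogs Eif4a1 and Eif4a2 lay on either side of 0 without a call: Eif4a1 had 1016.15 and 1012.79 TPM in Tet2 KO libraries and 1070.09 and 1072.88 TPM in WT libraries, and Eif4a2 had 189.48 and 188.95 TPM in Tet2 KO libraries and 179.98 and 179.65 TPM in WT libraries. Eif4a3, known as a core protein of the exon junction complex rather than of eIF4F (chromosome 11, 119288363 to 119300089), had 131.15 and 138.23 TPM in Tet2 KO libraries, against 151.06 and 153.36 TPM in WT libraries. Its log2 change was -0.18 (SE 0.039, limma adjusted p = 0.024), with no overlap between the groups. Without Tet2 KO replicate 1, Tet2 KO replicate 2 or WT replicate 2 the call of Eif4a3 was lost (adjusted p 0.16, 0.072 and 0.054).

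None of the 3 eIF4G scaffolds passed the test, beside 30.5% of all genes tested called in either direction. Eif4g1, the main scaffold, had 187.93 and 186.28 TPM in Tet2 KO libraries, against 198.05 and 196.64 TPM in WT libraries (log2 change -0.08, limma adjusted p = 0.11). Eif4g3 had a log2 change of -0.11 (limma adjusted p = 0.068), with groups that did not overlap, and Eif4g2, which lacks the eIF4E-binding region, had 0.02 (limma adjusted p = 0.71).

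Of the 3 late factors, which act at subunit joining and after, 1 fell and 2 did not pass the test. Over all genes tested, 11.6% were called lower. Eif5a (chromosome 11, 69916714 to 69921958), the hypusine-containing protein that helps the ribosome through difficult peptide bonds, fell, with a log2 change of -0.17 (SE 0.047, limma adjusted p = 0.047) for the levels given above. The call was lost without Tet2 KO replicate 1 (0.18), Tet2 KO replicate 2 (0.23) and WT replicate 2 (0.053), and an annotated pseudogene may share its reads. Eif6, which keeps the large subunit from joining early, had 69.77 and 76.64 TPM in Tet2 KO libraries and 87.21 and 78.55 TPM in WT libraries (log2 change -0.18, limma adjusted p = 0.11), and Eif5b, the joining GTPase, stood at 41.99 and 41.43 TPM in Tet2 KO libraries and 41.63 and 42.46 TPM in WT libraries. Summed with Eif5a2, which is under the filter, the late factors had 1296.33 and 1278.24 TPM in Tet2 KO libraries, against 1392.27 and 1492.65 TPM in WT libraries.

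Ratios of 2 factors within a library do not depend on any scaling by a single number per library. Quantile scaling is not of that kind, and under it the log2 difference of the ratio of Eif4a2 to Eif4a1 was 0.20, against 0.15 as deposited. Eif4ebp1 stood at 5.09 and 5.05 times the TPM of Eif4e in Tet2 KO libraries, against 4.38 and 3.99 times in WT libraries. It stood at 2.77 and 2.74 times the TPM of Eif4ebp2 in Tet2 KO libraries, against 2.44 and 2.30 times in WT libraries. The ratio of Eif4a2 to Eif4a1 was 0.187 in each Tet2 KO library, against 0.168 and 0.167 in WT libraries. By these values the paralogs stood closer together in Tet2 KO cells. Exons of Eif4a2 overlap 7 other annotated genes, Rfc4 on the opposite strand among them, which limits that ratio. Eif4e3 relative to Eif4e was 0.524 and 0.556 in Tet2 KO libraries, against 0.481 and 0.468 in WT libraries. Eif5 relative to Eif1 was 0.206 and 0.202 in Tet2 KO libraries, against 0.236 and 0.269 in WT libraries, a shift of -0.30 on the log2 scale. The annotation also holds pseudogenes named for Eif4a and Eif1, among which reads behind these ratios may have been split. Of 12 pairs chosen by role, 9 gave groups that did not overlap, with an exact two-sided permutation p of 0.333 (0.444 after Benjamini-Hochberg adjustment over the 12), and for 3 the groups overlapped. Among all genes tested 68.6% stood apart in either direction, and ratios of other genes were not examined. The 9 pairs include Eif5a2 to Eif5a, in which Eif5a2 is under the filter, at 0.32 to 0.49 TPM. By exact permutation no p below 0.05 can arise from 2 against 2 libraries.

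**Figure D4:**
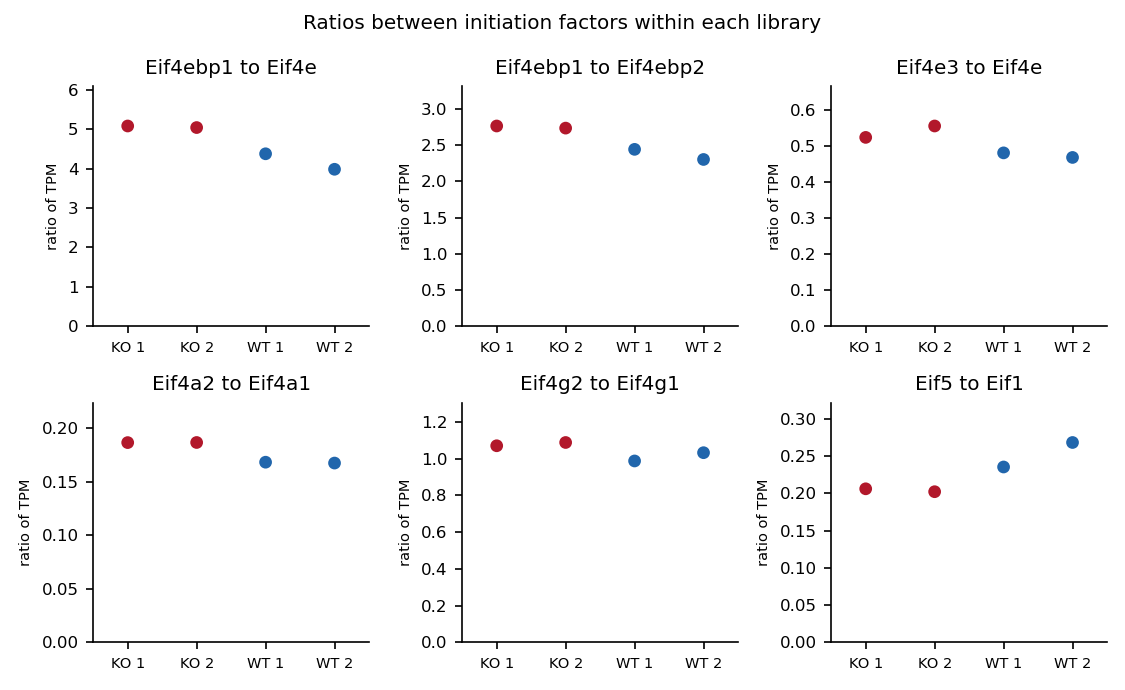
Each panel plots on the vertical axis, from 0, the ratio of 2 TPM values within a library, with the 2 Tet2 KO libraries left of the 2 WT libraries. Eif4ebp1 to Eif4e, Eif4ebp1 to Eif4ebp2, Eif4e3 to Eif4e, Eif4a2 to Eif4a1 and Eif4g2 to Eif4g1 are higher in both Tet2 KO libraries, and Eif5 to Eif1 is lower.

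Of 48 other translation genes tested, listed by role, 13 rose (27.1%, beside 18.9% of all genes tested), 3 fell (6.2%, beside 11.6%) and 32 did not pass the test, with a median log2 change of 0.04. With spike-in scaling 1 was called higher and 3 lower. The elongation factors held 5 of those that rose, out of 10. Eef2, which moves the ribosome along the mRNA, had 2831.3 and 2883.8 TPM in Tet2 KO libraries, against 2323.28 and 2330.07 TPM in WT libraries (log2 change 0.30, limma adjusted p = 0.0027), and its inhibitory kinase Eef2k rose too (log2 change 0.39, limma adjusted p = 0.0022). Of the 10 elongation factors, 1 was called with spike-in scaling. Eef1g, Eef1a1 and Eef1b2, which deliver aminoacyl-tRNA or recharge the factor that does, rose by 0.32, 0.29 and 0.30 on the log2 scale. Of 6 poly(A)-binding proteins and partners 3 rose, among them Pabpc1, which bridges the poly(A) tail to eIF4G, with 1954.27 and 1985.03 TPM in Tet2 KO libraries and 1642.18 and 1681.55 TPM in WT libraries.

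Of 8 eIF2 alpha kinases and phosphatase subunits 2 rose and 1 fell. Over all genes tested, 18.9% were called higher and 11.6% lower, shares that also stand beside the lists below. Eif2ak4, the amino acid-sensing kinase GCN2, had 24.0 and 24.32 TPM in Tet2 KO libraries, against 19.38 and 19.24 TPM in WT libraries (log2 change 0.31, limma adjusted p = 0.0068). Eif2ak1, the heme-regulated kinase, had 35.83 and 36.23 TPM in Tet2 KO libraries, against 40.66 and 42.31 TPM in WT libraries (log2 change -0.20, limma adjusted p = 0.021). Ppp1r15a, the stress-induced phosphatase subunit, rose (log2 change 0.24, limma adjusted p = 0.014). In the list for mTORC1 and the eIF4E kinases 2 of 15 rose (13.3%, below the share over all genes), Mknk1 and Rptor, with log2 changes of 0.17 and 0.18. With quantile or trimmed-mean scaling 0 of that list were called. Of 7 genes of non-canonical initiation and scanning, Dhx29, a helicase for structured leaders, fell (10.76 and 10.99 TPM in Tet2 KO libraries, against 15.11 and 15.62 TPM in WT libraries, log2 change -0.46, limma adjusted p = 0.0036), and Ddx3x also fell. Abce1, the ribosome recycling factor, rose at a limma adjusted p of 0.0499, and with quantile, trimmed-mean or spike-in scaling 0 of this list were called higher.

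The size of these changes depends on what the libraries are scaled to. Spike-in RNA took 3.414% and 3.385% of the TPM in Tet2 KO libraries, against 2.976% and 3.304% in WT libraries, and scaling to it moved the median of all genes by -0.11 on the log2 scale. With that scaling 0 factors were called higher and 2 were called lower, Eif4a3 (limma adjusted p = 0.034) and Eif5 (0.038, not called as deposited), beside 5.33% and 12.5% of all genes (17.8% in either direction), and 14 factors had an unadjusted p under 0.05. The sign of no called factor changed. WT replicate 1 had the lowest spike-in share. Without it, spike-in scaling gave median log2 changes of 0.013 for the factors and -0.011 for all genes. Trimmed-mean scaling called 10 higher and 8 lower, beside 14.9% and 15.1% of all genes, and quantile scaling called 13 and 6, beside 16.1% and 13.7% (29.8% in either direction). Trimmed-mean scaling ended the calls of Eif3a (adjusted p 0.066), Eif4ebp2 (0.055) and Eif4ebp3 (0.079), and quantile scaling those of Eif4ebp3 (0.072) and Eif5a (0.052). Eif5, Eif2b2, Eif4a1 and Eif4g3 were called lower under both of these scalings (adjusted p 0.021 to 0.047), Eif4g1 with trimmed-mean scaling alone (0.045), and Eif1 was called higher with quantile scaling (0.032). Rescaling without the 11 granulocyte markers, an alternative added after seeing the data, called 10 higher and 8 lower. Of all genes called, 62.0% were higher in Tet2 KO cells as deposited, 54.1% with quantile, 49.75% with trimmed-mean and 29.9% with spike-in scaling. Relative to the median of all genes, the median log2 change of the eIF3 transcripts was 0.10 higher as deposited and 0.09 higher with spike-in scaling. Spike-in scaling uses a single number per library and shifts all genes almost equally. That difference could therefore hardly change, and its persistence is no test of the eIF3 result.

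**Figure D5:**
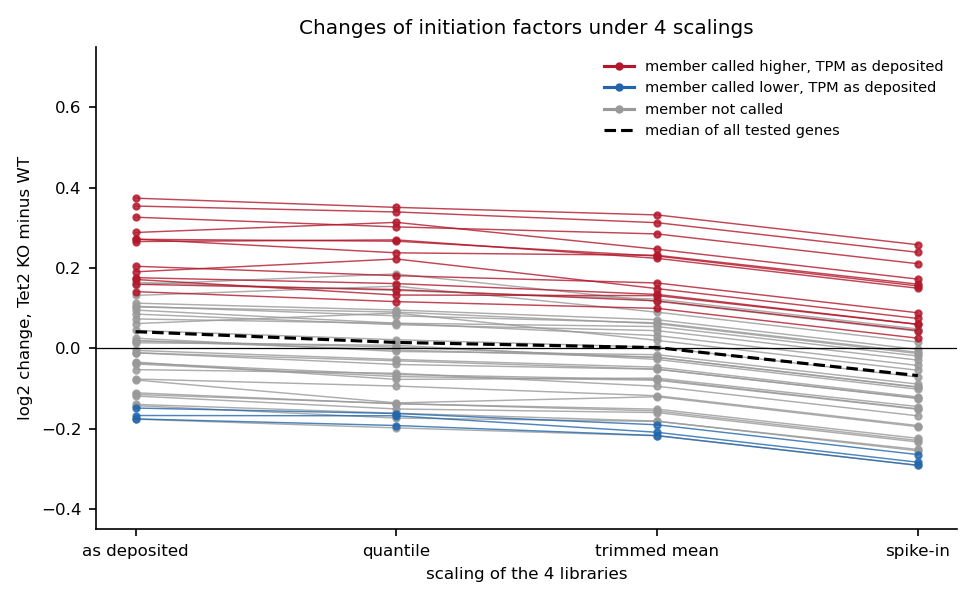
The log2 change, Tet2 KO minus WT, of each tested factor is plotted on the vertical axis under 4 scalings of the libraries on the horizontal axis, as deposited, quantile, trimmed mean and spike-in, with a dashed line for the median of all tested genes. The factors shift downward together with that median under spike-in scaling, where the median of the factors was -0.06.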

How the data were processed

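RNA-seq was measured in 4 libraries of cultured mouse AML cells, 2 labelled Tet2 KO and 2 labelled WT. The authors deposited a single table of TPM values whose unit was read from the values, since each column sums to 1000000. STAR, RSEM and the mm10 build appear in the submitters' processing notes, while their versions, the annotation and the counting by strand are not given in the sources used here. TPM keeps no depth, so the read depth behind each value is unknown and no counting interval is given. The table held 24589 entries, of which 92 spike-in controls were left out. A gene was tested where 2 or more libraries reached 1 TPM, which kept 11837, on log2(TPM + 1), a scale that understates the change of low genes, with limma 3.58.1 in R 4.3.3, with a variance trend (2 residual and 3.51 prior degrees of freedom). P-values were adjusted by Benjamini-Hochberg over all tested genes and called below 0.05. Standard errors are the moderated ones of limma. Single ratios and sums were compared by exact two-sided permutation. On simulated data with 200 changed genes among the 11837, the test found 14.2% of changes of 0.2 on the log2 scale, 48.2% of those of 0.3 and 78.6% of those of 0.5, and 10.28% of its calls were false. In the data 30.5% of genes were called, far more than were changed in the simulation. The share found and the share false may therefore not carry over to this fit.

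All members were accounted for, and named by role and call. The members, gene lists and ratio pairs were chosen with earlier results of these data known. Gene positions come from GENCODE M21 (GRCm38) and promoter sequences from RefSeq (GRCm38.p6), the assembly that mm10 names. In all 19 alternatives were run, 3 of them added after seeing the data. A marker gene is not reported here.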

Additional observations from a re-analysis of the deposited data

How the results depend on the processing

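Every one of the 16 called factors kept its sign in all 19 alternatives. Altering the filter, the variance settings of limma, the threshold or the replicate block leaves a factor's log2 change as it was. In those alternatives no sign could turn. Eif2a, Eif3c and Eif4ebp1 stayed called in 18, losing the call only with spike-in scaling, and Eif4ebp3 in 5. Factors called higher, 13 as deposited, numbered 0 with spike-in scaling, 8 with spike-in scaling without WT replicate 1, 6 without a variance trend, 5 at an adjusted p under 0.01, and 3 to 12 with 1 library left out. Factors called lower, 3 as deposited, numbered 6 with quantile scaling, 8 with trimmed-mean scaling, 8 after rescaling without the granulocyte markers, 7 with spike-in scaling without WT replicate 1, 0 without a trend, 0 at an adjusted p under 0.01, and 0 to 3 with 1 library left out. Where 0 were called lower, 18 factors (no trend) and 28 (the stricter threshold) had an unadjusted p under 0.05 in either direction. Genes called higher, 2237 as deposited, numbered 631 with spike-in scaling, 1362 with spike-in scaling without WT replicate 1, 839 at an adjusted p under 0.01, and 628 to 2190 with 1 library left out. Genes called lower, 1369 as deposited, numbered 666 at an adjusted p under 0.01 and 602 to 1065 with 1 library left out. The median change of the factors was -0.063 with spike-in scaling. The stricter threshold and fewer libraries lower a count by construction, and for the other settings the cause was not tested.

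Reversed signs were confined to uncalled factors. With spike-in scaling the log2 changes were -0.01 for Eif1a, -0.029 for Eif2d, -0.096 for Eif2s1, -0.013 for Eif3d, -0.10 for Eif3g, -0.0026 for Eif3j2, -0.055 for Eif3k, -0.043 for Eif4a2, -0.019 for Eif4e, -0.089 for Eif4enif1, -0.097 for Eif4g2 and -0.072 for Eif4h. With spike-in scaling without WT replicate 1 they were -0.033 for Eif2s1, -0.0099 for Eif4e, -0.05 for Eif4enif1 and -0.049 for Eif4g2. With trimmed-mean scaling they were -0.023 for Eif2s1, -0.028 for Eif3g, -0.016 for Eif4enif1 and -0.023 for Eif4g2, and with quantile scaling -0.0078 for Eif4enif1 and -0.004 for Eif4g2. Without the granulocyte markers they were -0.015 for Eif2s1, -0.020 for Eif3g, -0.0086 for Eif4enif1 and -0.015 for Eif4g2. Without spike-ins and 45S RNA they were 0.0083 for Eif1ax, 0.002 for Eif2b1 and 0.0022 for Eif5b. With 1 library left out the log2 changes ranged over -0.066 to 0.056 for Eif1ax, -0.038 to 0.015 for Eif2b1, -0.088 to 0.0197 for Eif2b3, -0.0092 to 0.047 for Eif2s1, -0.031 to 0.059 for Eif3g, -0.085 to 0.0073 for Eif4e2, -0.0096 to 0.0599 for Eif4enif1, -0.0081 to 0.046 for Eif4g2 and -0.025 to 0.0027 for Eif5b.

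With the replicate number as a block, 11 factors were called higher and 1 lower, and 1888 and 1183 genes. Deviations of same-numbered libraries correlated at -0.1142 across genes, so the numbers are not shown to pair the samples. The crossed pairing, chosen after seeing the data, called 14 factors higher and 4 lower, and 2136 and 1327 genes.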
